A study of Oryza sativa with 4 samples.

Results

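The genes described are the rice Aux/IAA genes and auxin response factor (ARF) genes, the repressors and the DNA-binding factors of the nuclear auxin pathway. A gene was a member if the rice annotation gave it a symbol or synonym IAA with a number from 1 to 31 or ARF with a number from 1 to 25, with a leading Os dropped. Its value came from the probe set that the array annotation ties to that gene alone, or, where there were several, from the one with the highest mean. In the annotation 51 genes met the rule, 28 Aux/IAA and 23 ARF genes. Of these, 43 had such a probe set, 26 Aux/IAA and 17 ARF genes, of 17905 genes with a single-gene probe set in all. The members without one were IAA11, IAA29, ARF5, ARF6, ARF8, ARF19, ARF21 and ARF25, which are not analysed here. For 8 genes the annotation lists a second number from another numbering. Each was called by the number not held alone by another gene, so that the gene also listed as OsARF1 is ARF23 here, the one also listed as OsARF16 is ARF1, and the one also listed as OsARF8 is ARF12.

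Aux/IAA proteins are short-lived nuclear repressors that bind ARF proteins on the promoters of auxin-responsive genes and recruit co-repressors of the TOPLESS type. Auxin joins an Aux/IAA protein to its F-box receptor, which leads to breakdown of the repressor and frees the ARF. Many Aux/IAA genes are themselves auxin-induced and so feed back on the pathway. ARFs fall into activators, rich in glutamine in the middle of the protein, and repressor-type factors. In rice as in other plants some ARF messages are cut by small RNAs, miR160, miR167 or the trans-acting tasiR-ARF. In the panicle auxin marks the sites where branches and spikelets form.

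Young panicles from before stage 5 were taken from field-grown plants of the cultivar ZH11 (wild type, WT) and of ago2-1, plants that carry OsAGO2 in antisense. AGO2 is an argonaute, the kind of protein that small RNAs guide to their targets. Each genotype was measured on 1 Affymetrix array in 2013 and 1 in 2014, so there were 4 arrays and n = 2 per genotype, with no agent applied in any group. The labels do not say which promoter drives the construct, whether the line is 1 transformation event or how many plants were pooled, so p-values measure only the spread between these arrays.

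The arrays differed between the years in several ways that bear on what follows. The median intensity was 29.1 and 28.8 in 2013 and 45.3 and 45.2 in 2014. Levels are therefore mostly compared within a year, or across the years after quantile scaling, which gives all 4 arrays 1 distribution. Where arrays of both years are set side by side on the deposited scale, the shift between the years is included. The targeted gene AGO2 did not have a lower level in the ago2-1 arrays, with log2 differences of 0.08 in 2013 and 0.45 in 2014 (95% interval of the mean −0.10 to 0.63 in limma with year as a block), so every direction below is that of arrays carrying this label. Of 17 inflorescence and flower markers, 15 lay above the array median on all 4 arrays, and the exceptions were RFL and FZP. All 5 measured green tissue markers were also above it. The summed intensity of these green tissue markers after quantile scaling was 6389 and 7394 in 2013 against 26833 and 24168 in 2014. That of 8 anther wall and tapetum genes was 8562 in WT and 6328 in ago2-1 in 2013, and 5583 and 4173 in 2014. Among the members, ARF13, IAA16, IAA20 and IAA26 lay below the array median on every array. In this whole panicle tissue, fewer cells of a type and less RNA per cell cannot be told apart.

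Most members had nearly the same intensity on the WT and ago2-1 arrays of a year, and none passed the test between the genotypes. The difference was taken on the log2 scale within each year and averaged over the 2 years. Its median size was 0.09 for the 26 Aux/IAA genes and 0.10 for the 17 ARF genes, beside 0.14 over all genes. The medians with their sign were 0.03 and 0.06, beside 0.01 over all genes. In limma on all probe sets without a block, 0 of 43 members had an adjusted p under 0.05 (the lowest was 1), where 0.0507% of all probe sets were called. No member had an unadjusted p under 0.05 in that fit, as 0.871% of all genes did. The shift between the years counts as spread there, with a median standard error of 0.62 against 0.13 with the block. After quantile scaling without a block, limma called no member, where 0.0017% of all probe sets were called. On the deposited scale with year as a block, again 0 of 43 were called, where 0.107% of all probe sets were, and 6 members had an unadjusted p under 0.05, beside 11.9% of all genes. The typical 95% interval of a member reached 1.25 to either side without the block and 0.32 with it, so a difference of less than about that size could not be told from 0. These intervals are not adjusted for the number of probe sets. With the block, differences well above 0.32 were not called either, such as 1.18 for IAA9. Of the 43 members, 18 were higher and 10 lower on the ago2-1 arrays in both years, and the other 15 were not alike in both. Over all genes 34.2% were higher and 30.0% lower in both years. Beside this, 7 of 8 anther wall and tapetum genes were lower on the ago2-1 arrays in both years (median −0.37), and RAFTIN1 passed with year as a block (limma adjusted p = 0.029). Their part in the members' differences was not tested.

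Among the repressors, 4 Aux/IAA genes stood farthest apart between the genotypes, 1 upward and 3 downward. IAA9 (LOC4331061) had a log2 intensity of 4.08 in WT and 5.33 in ago2-1 in 2013, and of 5.24 and 6.35 in 2014. Both arrays labelled ago2-1 were thus above both WT arrays, with differences of 1.25 and 1.11 and a mean of 1.18 ± 0.10 (SD of the within-year differences, n = 2), or 2.26-fold. In the limma fit the interval was −0.10 to 2.45 without a block (adjusted p = 1) and 0.86 to 1.49 with the year block (adjusted p = 0.087). Of the 43 members IAA9 alone was at least 2-fold higher in each year, as were 0.168% of all genes. Its level is dim, below the array median on both WT arrays (4.86 in 2013 and 5.50 in 2014) and above it on both ago2-1 arrays. It has 1 probe set, and with no background measure the size of its difference is uncertain.

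IAA12 (LOC4333512) had 6.84 in WT and 5.81 in ago2-1 in 2013, and 5.96 and 5.28 in 2014. It was lower on the ago2-1 array in each year, by −1.04 and −0.68, with a mean of −0.86 ± 0.25 (SD, n = 2). Its interval in the limma fit with year as a block was −1.22 to −0.50 (adjusted p = 0.25). IAA9 and IAA12 were the 2 members that differed at least 1.5-fold one way in each year, as did 1.61% of all genes. The annotation places IAA12 next to IAA11 on chromosome 3, but IAA11 had no probe set of its own.

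IAA6 (LOC4326541), which affects tiller outgrowth and drought tolerance in rice, lay at 7.21 and 7.10 on the WT arrays of 2013 and 2014. On the ago2-1 arrays it lay at 5.75 and 6.62, below both WT values. The difference was −1.45 in 2013 and −0.48 in 2014, so most of its mean of −0.97 ± 0.69 (SD, n = 2) came from 2013, where the array labelled ago2-1 was the low one of the 4. Its interval in limma with the block was −1.58 to −0.36 (adjusted p = 0.46).

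IAA14 (LOC4334431) had the steadiest of these differences, −0.48 in 2013 and −0.43 in 2014, from 8.18 to 7.70 and from 8.68 to 8.25. Its limma interval with the block was −0.76 to −0.15 (adjusted p = 0.47). IAA4 (LOC4327919), whose overexpression makes rice plants dwarfed and less sensitive to a synthetic auxin, differed by −0.38 and −0.19 on a probe set with an _x_at suffix, which may also bind related sequences. A second probe set of IAA4 followed it (−0.24 and −0.11), whereas the third differed by 0.45 and −0.42. The level of IAA4 was close to the array medians, at 4.75 to 5.47 on the 4 arrays.

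**Figure D1:**
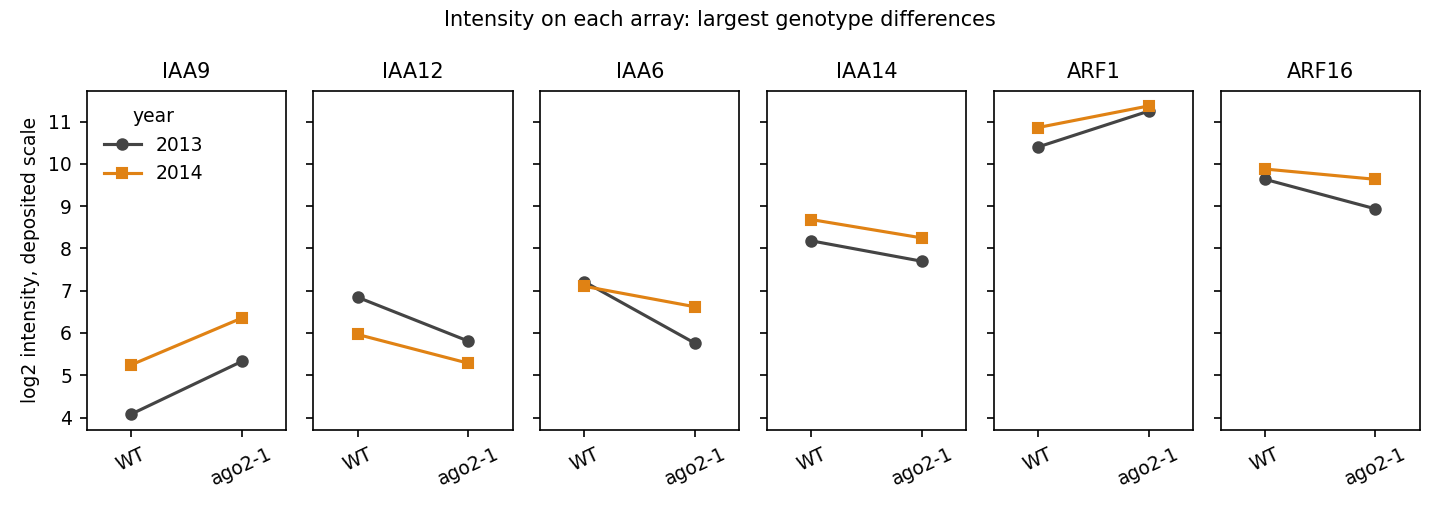
Log2 intensity on the deposited scale of 6 members on each of the 4 arrays, with the WT and ago2-1 arrays of 1 year joined by a line. IAA9 and ARF1 slope up and IAA12, IAA6, IAA14 and ARF16 slope down in both years; heights of different genes come from different probes and are not comparable.

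The largest differences among the ARF genes were smaller than those among the Aux/IAA genes. ARF1 (LOC4327785) had 10.40 in WT and 11.25 in ago2-1 in 2013, and 10.86 and 11.37 in 2014. Both ago2-1 arrays were above both WT arrays, with a mean difference of 0.68 ± 0.24 (SD, n = 2), or 1.60-fold, and the limma interval with the block was 0.32 to 1.04 (adjusted p = 0.36). ARF16 (LOC9270361), an activator that acts in the phosphate starvation response of rice roots, lay at 9.63 and 9.88 on the WT arrays and at 8.93 and 9.63 on the ago2-1 arrays. Its difference was −0.70 in 2013 and −0.24 in 2014, with a limma interval of −0.86 to −0.08 with the block (adjusted p = 0.53). ARF4 (LOC4326957), a negative regulator of grain size, differed by 0.28 and 0.23, and ARF2 (LOC4325895), an ETTIN-type factor, by 0.36 and 0.14. In each of these a second probe set gave differences in the same direction, 0.34 and 0.31 for ARF4 and 0.32 and 0.13 for ARF2. ARF10 (LOC4336419) differed by −0.16 and −0.43.

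The arrays of the genotypes did not overlap on the deposited scale for 6 of 43 members, where they did not for 9.92% of all genes (3.67% higher and 6.25% lower on the ago2-1 arrays). They were IAA9, ARF1 and IAA15 on the higher side and IAA12, IAA6 and ARF16 on the lower. IAA15 is among them by a narrow gap, with 11.55 and 11.85 on the WT arrays and 11.87 and 11.90 on the ago2-1 arrays. The list depends on the scale. After quantile scaling IAA9, ARF1, IAA6 and ARF16 still did not overlap, but IAA12 and IAA15 did. Scaled IAA12 was 6.10 in ago2-1 in 2013, above 5.64 in WT in 2014. Scaled IAA15 was 11.59 in ago2-1 in 2014, below 11.84 in WT in 2013. Other members, among them IAA14 and ARF2, were apart only after this scaling.

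**Figure D2:**
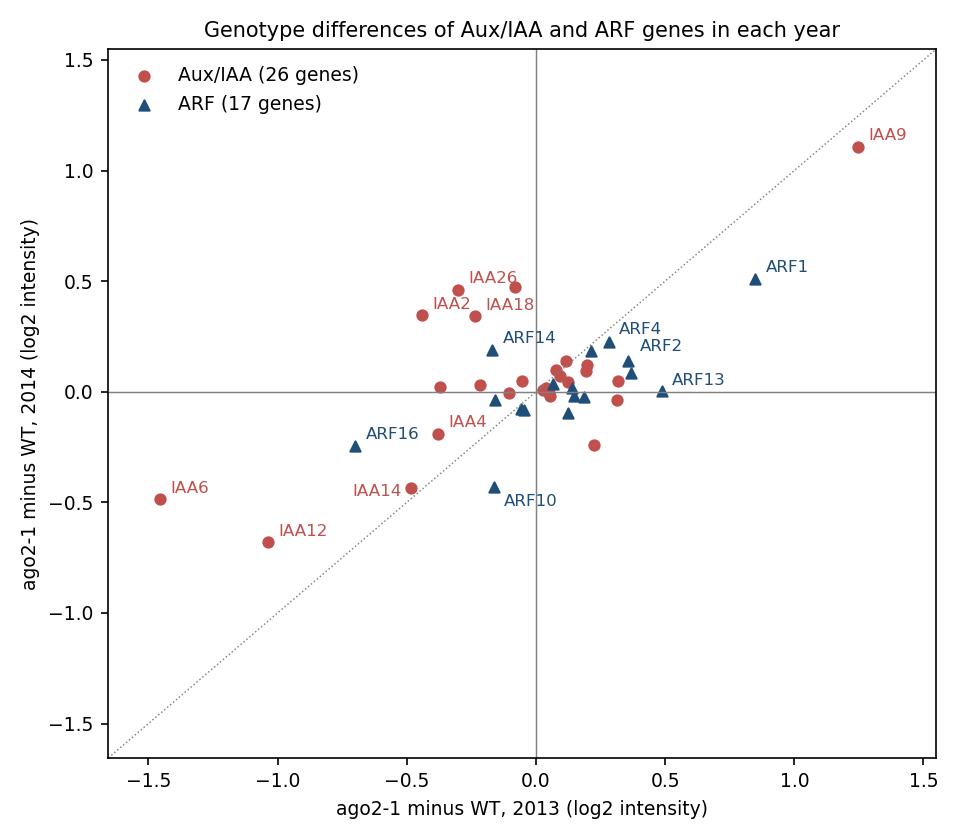
Difference between the ago2-1 and the WT array in 2013 (horizontal axis) and in 2014 (vertical axis), in log2 intensity, for the 26 Aux/IAA genes (circles) and the 17 ARF genes (triangles), with equality dotted. IAA9 stands alone at 1.25 and 1.11, IAA6 and IAA12 lie far down and left, and most other genes lie near 0.

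Because the line is labelled for an argonaute, the ARFs known as targets of small RNAs were set beside the others. The groups, and the types below, follow general knowledge of the family under the numbers used here. By their second number ARF4 and ARF12 would fall in another small RNA group, and ARF1 and ARF12 in the other type, so the medians depend on the choice of number. Neither group had a called member, and their differences were small. The 4 measured ARFs listed for miR160 (ARF10, ARF13, ARF18 and ARF22) had a median of −0.03, and ARF10 was the farthest of them at −0.30. ARF12, which acts in root elongation and iron distribution, and ARF17, both listed for miR167, differed by 0.06 and 0.05. The 4 ARFs listed for tasiR-ARF, among them the ETTIN-type genes ARF2 and ARF15, had a median of 0.04 and reached at most 0.25. The 7 ARFs tied to none of these small RNAs had a median of 0.20 and included ARF1 and ARF16. These groups were set up after the annotation was seen, and the differences between them were not tested. By type, the 3 measured activators, ARF12, ARF16 and ARF17, had a median of 0.05 and the 14 repressor-type ARFs one of 0.08. As 5 of 8 annotated activators had no probe set, little can be said of that type.

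Several members differed one way in 2013 and the other way in 2014, which with 1 array per genotype and year could not be tested. IAA2 (LOC4326775) was lower on the ago2-1 array of 2013 by −0.44 and higher on that of 2014 by 0.35, with levels of 9.84 and 9.39 and then 10.01 and 10.36. IAA18 (LOC4339365) differed by −0.24 and 0.34. IAA26 (LOC4347643) differed by −0.30 and 0.46, but with levels of 2.86 to 4.45 it lay below the array median on every array. Among the ARFs, ARF14 (LOC4339313) differed by −0.17 and 0.19. ARF13 (LOC9269399) was not opposed but unlike in size, with 0.49 and 0.00 at levels of 4.08 to 5.28, also below the array median. No member was at least 1.5-fold apart in both years with opposed signs.

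Between the years the 2 families leaned apart, Aux/IAA genes toward lower and ARF genes toward higher levels in 2014, but few members changed beyond the spread. After quantile scaling, 5 of 43 members passed in limma with the genotype as a term (adjusted p under 0.05), where 23.3% of all probe sets and 22.0% of all genes were called. Members were thus called at 11.6%, below the rate of all genes. IAA12, IAA25 and IAA13 fell, as did 11.1% of all probe sets, and ARF14 and ARF4 rose, as did 12.2%. Taking both genotypes together, 14 of 26 Aux/IAA genes were lower in 2014 in WT and in ago2-1 and 8 were higher. Of 17 ARF genes 2 were lower in both, ARF1 and ARF15, and 11 were higher. Over all genes 39.2% were lower and 38.7% higher in both. The median change was −0.15 for Aux/IAA genes and 0.12 for ARF genes, beside −0.01 over all genes. Relative to the median of all genes, the Aux/IAA median ran from −0.14 to −0.12 and the ARF median from 0.08 to 0.13 over the deposited scale and 3 scalings. In WT the medians were −0.19 and 0.24, and in ago2-1 −0.07 and 0.06, so the gap was narrower there, a contrast that was not tested. Members of a family are not replicates, and the gap carries no p.

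IAA12 changed most. Its scaled log2 intensity was 7.16 in WT and 6.10 in ago2-1 in 2013, and 5.64 and 4.96 in 2014. It fell by 1.53 in WT and by 1.14 in ago2-1, on average by 1.33 ± 0.27 (SD, n = 2; limma interval −1.70 to −0.97, adjusted p = 0.0069). The WT array of 2013 was the highest and the ago2-1 array of 2014 the lowest, and the years did not overlap.

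IAA25 (LOC4344471) lay at 8.45 and 8.74 in 2013 and at 7.61 and 7.57 in 2014, and fell by 1.01 ± 0.23 (SD, n = 2; limma adjusted p = 0.011), or 2.01-fold. IAA13 (LOC4334069), whose stabilised form reduces lateral roots in rice, lay at 12.31 and 12.57 in 2013 and at 11.90 and 11.66 in 2014. It fell by 0.66 ± 0.35 (SD, n = 2; limma adjusted p = 0.039), more in ago2-1 than in WT. No member but IAA12 and IAA25 differed at least 1.5-fold one way in each genotype. Both were lower in 2014, as were 6.15% of all genes by that measure.

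Both ARFs that rose are of the repressor type. ARF14, listed for tasiR-ARF, had 8.30 in WT and 8.10 in ago2-1 in 2013, and 8.75 and 8.94 in 2014. It rose by 0.64 ± 0.27 (SD, n = 2; limma adjusted p = 0.034). ARF4 lay at 11.05 and 11.35 in 2013 and at 11.59 and 11.82 in 2014, and rose by 0.50 ± 0.04 (SD, n = 2; limma adjusted p = 0.039). Its second probe set differed by 0.19 (adjusted p = 0.29), and the mean of both by 0.35 (adjusted p = 0.089), so the call is of 1 probe set. At the other end, ARF22 hardly moved, with 10.39 and 10.34 in 2013 and 10.40 and 10.32 in 2014. IAA2 also averaged near 0 (−0.02), but from changes of −0.40 in WT and 0.36 in ago2-1.

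These 5 calls rest on few arrays. With no genotype term and 1 array left out, no fit kept all 5 calls. As 1 year then holds a single array, only sizes are given. The change ran from −1.86 to −0.80 for IAA12 (−0.80 without the WT array of 2013). For IAA25 it ran from −1.16 to −0.87 and for IAA13 from −0.80 to −0.53. For ARF14 it ran from 0.54 to 0.74 and for ARF4 from 0.36 to 0.65. With no genotype term and all 4 arrays, IAA12 lost its call (adjusted p = 0.085) and so did ARF4 (0.091).

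**Figure D3:**
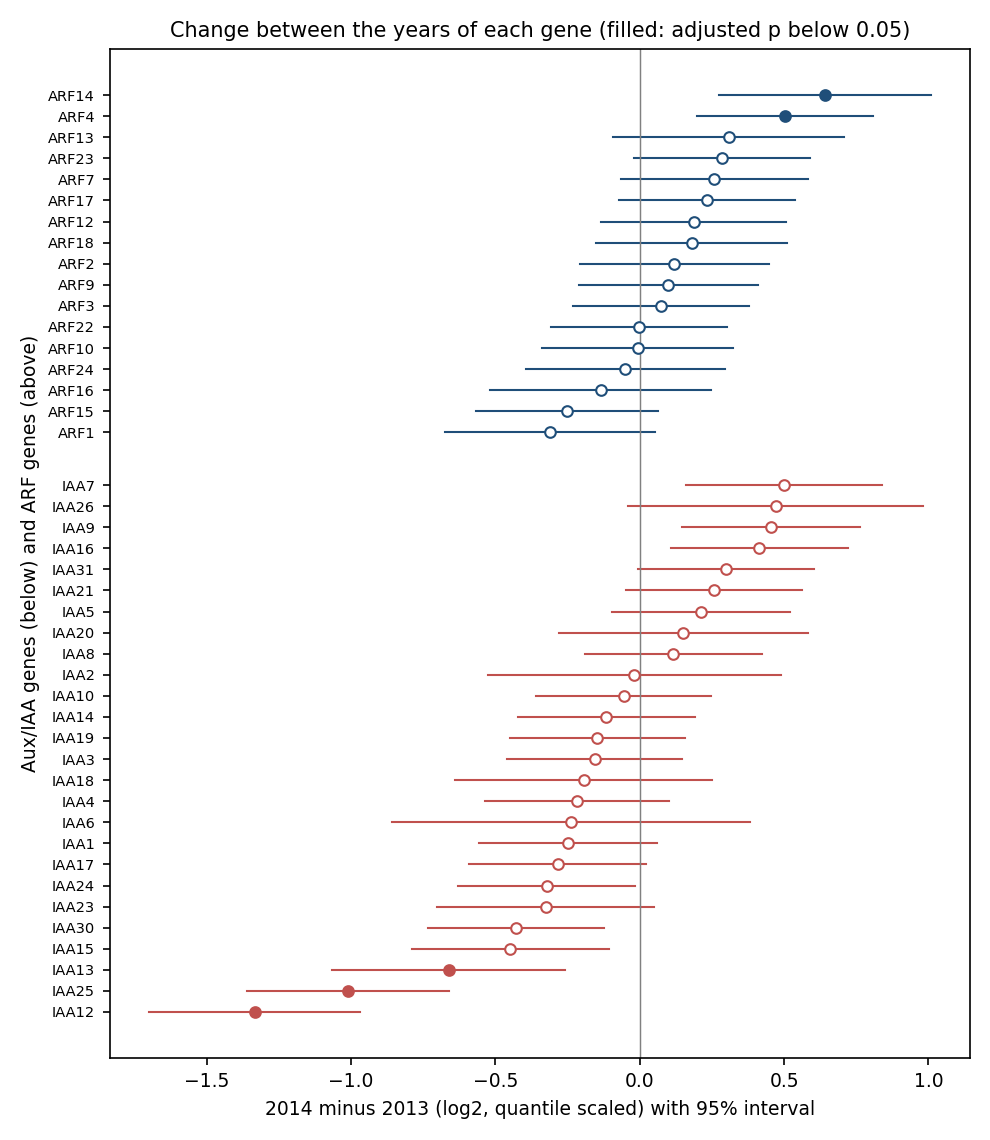
Change from 2013 to 2014 of every measured member, in log2 after quantile scaling, with its 95% interval from limma, Aux/IAA genes below and ARF genes above. Filled points passed at an adjusted p of 0.05: IAA12, IAA25 and IAA13 on the left, ARF14 and ARF4 on the right.

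Just short of the threshold were IAA7 (LOC4328796), which was higher in 2014 by 0.50 (limma adjusted p = 0.0504), and IAA9, by 0.45 (0.051). IAA30 (LOC4352721) lay at 13.25 and 13.30 in 2013 and at 12.82 and 12.86 in 2014, a mean difference of −0.43 (adjusted p = 0.056). IAA31 (LOC4352722), the next gene to IAA30 on chromosome 12, differed the other way, by 0.32 in WT and 0.27 in ago2-1 (adjusted p = 0.13), and its second probe set by 0.34 and 0.47. The difference between these neighbours was not tested. After quantile scaling the arrays of the years did not overlap for 27 members, 62.8% beside 63.4% of all genes. Among them 11 Aux/IAA genes were lower and 6 higher in 2014, against 1 lower and 9 higher ARF genes. Of all genes 31.2% were lower and 32.1% higher in this way.

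IAA6 moved apart between the genotypes here, with −0.74 in WT and 0.27 in ago2-1, a contrast that was not tested. ARF1 differed by −0.12 in WT and −0.50 in ago2-1 (adjusted p = 0.17). ARF23 (LOC4350610), which with ARF24 controls the actin regulator RMD in rice, differed by 0.29 on the probe set used but by −0.25 on its second, an _x_at probe set, and neither passed. The probe sets of IAA8 disagreed as well, with 0.12 on the one used and −0.42 on a dim one. The 15 Aux/IAA genes not singled out by the naming rule ran from −0.18 to 0.20 between the genotypes and from −0.45 to 0.50 between the years. The 8 such ARF genes ran from −0.10 to 0.23 and from −0.25 to 0.26.

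**Figure D4:**
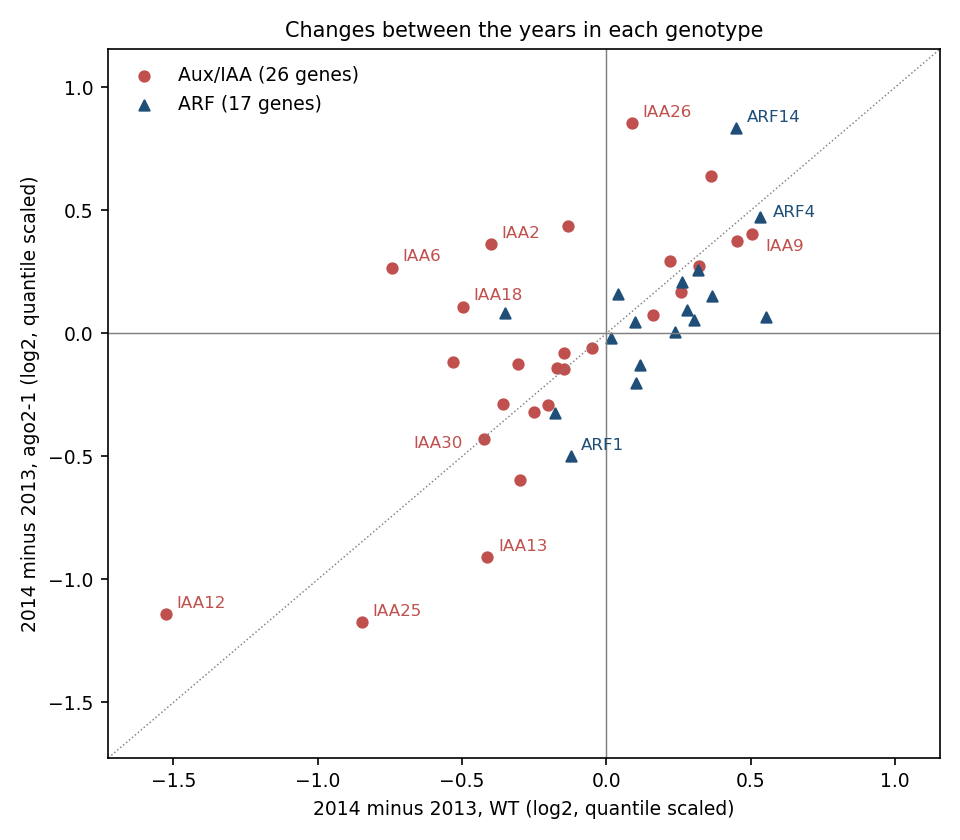
Change from 2013 to 2014 in WT (horizontal axis) and in ago2-1 (vertical axis), in log2 after quantile scaling, for the 26 Aux/IAA genes (circles) and the 17 ARF genes (triangles), with equality dotted. IAA12 and IAA25 lie below −0.8 in both genotypes, most ARF genes lie right of 0, and IAA6 and IAA2 were lower in WT and higher in ago2-1.

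As each year is also 1 season and 1 set of arrays, these cannot be told apart. Other marker genes moved with it. The 5 green tissue genes all rose and passed after quantile scaling, LHCP by 3.52 and RBCS by 2.40. Of 8 anther wall and tapetum genes 7 were lower in 2014 in both genotypes, beside 39.2% of all genes, and 5 passed. Of 7 clock genes 5 passed, CCA1 rising by 6.08 and PCL1 falling by 6.03. Of all genes 22.0% passed. Their part in the changes of the Aux/IAA and ARF genes was not tested.

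The rest of the auxin pathway had 21 measured genes by name, of which none passed between the genotypes (the lowest adjusted p with year as a block was 0.29). SAUR39, a negative regulator of auxin synthesis and transport, had the largest difference of these, 0.60 in 2013 and 0.79 in 2014. It is dim, at scaled levels of 3.06 to 3.90, and lay below the array median on every array, so the size is uncertain. The auxin efflux carrier PIN2 differed by −0.92 and −0.34. GH3-8, an enzyme that joins auxin to amino acids, differed by −1.18 in 2013 and −0.03 in 2014. Between the years 7 of the 21 passed, 3 rising and 4 falling, or 33.3% beside 22.0% of all genes. DAO, which oxidises auxin and is needed for anther opening in rice, rose by 1.49 (limma adjusted p = 0.0080), and GH3-1 fell by 1.26 (0.0082). Among the carriers PIN5 and PIN5A rose by 0.90 and 0.80 and PIN2 fell by 0.85. PIN5 and PIN5A are dim, at scaled levels of 3.47 to 4.74 and 3.56 to 4.66, and 3 of 5 measured carriers lay below the array median on every array. GH3-11 fell by 0.81 and GH3-4 fell by 0.57. The 3 co-repressor genes, among them ASP1, and the synthesis genes FIB and YUCCA1 had no call, with changes between −0.27 and 0.30. No gene of the annotation used here carried one of the receptor names searched, and the receptors are not analysed here.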

How the data were processed

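The authors deposited 1 intensity per probe set and array on a linear scale, and their processing notes, per the submitters, name RMA. Its version and whether the years were normalized apart are not given in the sources used here. Sorted log2 values were higher in 2014 than in 2013 by a median of 0.65. The log2 was taken here with no pseudocount, filter or background measure. Of 57194 probe sets 22436 name 1 gene, 95 several and 34663 none here. Names come from RefSeq, assembly ASM3414082v1, and all 22436 gene numbers matched. The labels' extraction text names another tissue and was not used. No sequence was used.

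All probe sets were fitted in limma 3.58.1 (R 4.3.3, lmFit and eBayes) with Benjamini-Hochberg adjustment over all of them. Genotypes were compared on the deposited scale without a block, and the years after quantile scaling with a genotype term. The titles' years mark a shared season and so pair the arrays (same-year deviations correlated at r = 0.77 across probe sets). With year as a block on the deposited scale no call on a member changed. Fits with year as a block (genotypes) or with a genotype term (years) were tested on simulated data of 57194 probe sets. The simulated arrays held no shift between the years outside the changed probe sets. The genotype fit without a block was not tested in this way. There 75.0% of genotype changes of log2 1 were recovered, with 126 false calls. For the years 85.0% of such changes were recovered, with 146 false calls. At changes of 2 and 3 at least 99.5% were recovered, with 83 to 209 false calls. The share of calls that were false is not given here, so these runs do not vouch for the calls above. Members and lists were chosen with earlier results of these data known. Named are, per family, the 5 largest genotype differences alike in both years, up to 8 called between years, the 4 least alike between years, the least moved between years, and members whose probe sets disagree by over 0.5; the other auxin genes are the farthest of each group. IAA15, IAA16, IAA20, IAA7, IAA30, IAA31, ARF12, ARF15 and ARF17 were named after their values were seen. A gene listed as pinA was left out of the carriers, as no name ties it to auxin. Alternatives were other scalings, the block, probe set choices, a limit on dim probe sets, the variance prior, a threshold of 0.1 and leaving out each array.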

Additional observations from a re-analysis of the deposited data

How the results depend on the processing

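No member was called between the genotypes in any of the fits run (replicate block, quantile, median or cyclic loess scaling, quantile scaling with replicate block, probe sets above the median, a trend and robust prior, other probe set choices, a threshold of 0.1 without the block), and the count stayed 0 without each array. IAA9 came closest, with adjusted p = 0.087 with the replicate block and 0.072 with quantile scaling and the block, so that it would be called at 0.1 in both fits paired by year, which gave 0 calls at 0.05. The median genotype difference of the Aux/IAA genes was 0.034 after quantile scaling, 0.035 after median centring, 0.019 after cyclic loess and 0.020 above the median level. With 1 array left out and no block, the shift between the years enters the difference. There the Aux/IAA median ran from −0.33 to 0.34 and the ARF median from −0.37 to 0.50. So did single genes that changed sign: ARF10 (−0.68 to 0.081), ARF13 (−0.36 to 0.85), ARF14 (−0.72 to 0.74), ARF2 (−0.16 to 0.66) and ARF4 (−0.31 to 0.82). IAA18 (−0.31 to 0.42), IAA2 (−0.53 to 0.44) and IAA26 (−0.72 to 0.88) did too. The larger differences kept their sign but moved over 1.5 times for IAA9 (0.59 to 1.76, lowest without the WT array of 2013), IAA12 (−1.30 to −0.42, smallest without that same array) and IAA6 (−1.40 to −0.54). IAA14 (−0.73 to −0.18), IAA4 (−0.55 to −0.022), ARF16 (−0.82 to −0.12) and ARF1 (0.45 to 0.91) moved likewise, and IAA6, IAA14, IAA4 and ARF16 were smallest without the ago2-1 array of 2013. ARF14 was −0.0081 after quantile scaling, with or without the block, and −0.023 after cyclic loess.

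Between the years, the 5 calls became 34 on the deposited scale, which holds the shift of all genes and where 80.5% of all probe sets were called. They became 3 with no genotype term (16.2% of all probe sets) and 3 above the median level (17.4% of the probe sets kept). With the trend and robust prior there were 13 (27.6% of all probe sets). A threshold of 0.1 gave 10 (36.6%). Without single arrays they were 0 to 2, and the change of IAA12 ran from −1.86 to −0.80. On the deposited scale the family medians were 0.51 for Aux/IAA and 0.71 for ARF genes, where the median of all genes was 0.63, and ARF22 (0.59) and IAA2 (0.57) were positive. Without single arrays the medians ran from −0.19 to −0.081 and from 0.11 to 0.24, ARF22 from −0.046 to 0.042 and IAA2 from −0.23 to 0.19. IAA8 turned to −0.15 with the mean of its probe sets, as its dim second probe set was lower. Beyond those given, the cause was not tested. Dim members have the least certain sizes, as no background measure was used.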
